A study of Mus musculus with 4 samples.

Results

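The interferon-stimulated genes described here are 46 mouse genes that are known to be switched on by interferon, taken as a list of symbols, and 46 of 46 were found among the 25655 genes of the expression files. They are described in neutrophils sorted as CD45.2+ CD11b+ Ly6G+ cells from hearts after myocardial infarction and reperfusion (MI/R). Mice lacking CD300a, an inhibitory receptor of myeloid cells, were compared with wild-type (WT) mice, separately in the SiglecF hi and the SiglecF lo subset. The 4 groups were WT SiglecF lo, *Cd300a-/-* SiglecF lo, WT SiglecF hi and *Cd300a-/-* SiglecF hi cells, and the sample labels call the subsets SiglecF+ and SiglecF-. In all groups the left anterior descending artery had been closed for 60 minutes and then reopened, and the heart was taken on day 3. According to the methods, mice used for MI/R were males of 8 to 12 weeks, and *Cd300a-/-* mice were on the C57BL/6 background. Sorted cells of 8 hearts were pooled for each group and gave 1 library, so no difference below has a replicate check, and no P value is given. The genotype is that of the whole mouse, so that other cells of the heart lacked CD300a as well.

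Type I interferons bind the receptor IFNAR and type III interferons bind a receptor of their own. Both activate the kinases JAK1 and TYK2 and, through them, a complex with STAT2 and IRF9 that binds a DNA element called ISRE, whereas interferon-γ acts at an element called GAS. The genes switched on in this way encode sensors of foreign or misplaced nucleic acid, proteins that block viral RNA, and feedback factors, and neutrophils and macrophages in the infarcted heart are known to express them.

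The depth, as counts on genes, was 9631901 and 10988619 for WT and *Cd300a-/-* SiglecF lo cells, and 19278243 and 17632989 for WT and *Cd300a-/-* SiglecF hi cells. Levels are given as TPM, transcript abundances corrected for length and depth that sum to the same total in each library, and always in the order WT SiglecF lo, *Cd300a-/-* SiglecF lo, WT SiglecF hi and *Cd300a-/-* SiglecF hi. A log2 ratio is log2((TPM + 1) ratio) between 2 libraries, which understates the difference of low genes, and it is counted as past the threshold beyond 1 or -1. The 95% intervals come from the counts of the libraries compared and cover counting error only, since PCR copies could not be told from separate molecules without molecular identifiers. A count of 0 allows up to 3 counts, or 0.311, 0.273, 0.156 and 0.170 CPM (counts scaled to library size) in the 4 libraries. For the background, the same ratios were taken for the 11472 genes with a mean TPM over 1, which include all 46 interferon-stimulated genes.

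*Cd300a* itself had 127, 1.06, 163 and 0.740 TPM, so the genotype labels matched the RNA in all 4 libraries. *Siglecf* was at 11.3, 15.3, 354 and 405 TPM, which follows the subset labels. Of the neutrophil genes, *S100a8* had 61914, 83596, 10370.0 and 12449 TPM and *Csf3r*, the receptor of G-CSF, 1443, 1749.6, 1069 and 1109 TPM. These genes were abundant in every library and lower in the SiglecF hi libraries. *Ly6g*, whose protein was used for the sort, was at 330.4, 889, 11.1 and 41.9 TPM, so its RNA was low in the SiglecF hi libraries. Genes of monocytes and macrophages were abundant as well, and 12 of 12 had a mean TPM over 1. Their summed level was 11416, 9905, 22631 and 18736 TPM, with *Lyz2*, which neutrophils also express, the most abundant, and the complement gene *C1qb*, a macrophage marker, was at 839, 754, 2257 and 2036 TPM. The libraries therefore held RNA of macrophage genes beside that of neutrophil genes, and the sum was higher in the SiglecF hi libraries. Single genes differed, and the monocyte gene *Ly6c2* was lower there, at 756, 706, 270 and 226 TPM. Between subsets 10 of the 12 genes were higher in SiglecF hi cells in WT and 11 in *Cd300a-/-*. Relative to the median ratio of all genes, 7 were higher in WT and 10 in *Cd300a-/-*. In such bulk samples, fewer cells of a type and less RNA per cell cannot be told apart.

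The 46 genes together made up 7187, 5907, 5579 and 6411 TPM. Their sum was highest in WT SiglecF lo and lowest in WT SiglecF hi neutrophils. The 6 most abundant by mean TPM were *Ifi27l2a*, *Slfn4*, *Isg15*, *Slfn1*, *Bst2* and *Irf7*. The first of them held 18.4% of the sum in WT SiglecF lo cells, 17.5% in WT SiglecF hi cells and 16.1% in *Cd300a-/-* SiglecF hi cells, and in *Cd300a-/-* SiglecF lo neutrophils *Slfn4* alone held 24.4%.

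To see whether loss of CD300a went with another level of these genes in SiglecF lo neutrophils, *Cd300a-/-* was compared with WT. Most interferon-stimulated genes were lower in *Cd300a-/-* SiglecF lo neutrophils, with a median log2 ratio of -0.28 against -0.02 over all 11472 genes. Of the 46, 30 were lower and 16 higher, where 48.1% of all genes were higher. The counting interval lay below 0 for 30 and above 0 for 12 genes, and it held 0 for 4, where it lay below 0 for 37.4% and above 0 for 35.2% of all genes. Past -1 were 4 genes, *Ifit1*, *Ifit2*, *Bst2* and *Ifi44*, or 4 of 46 against 10.4% of all genes, and past 1 were 0 genes against 6.88%. Counts past 1 were thus no higher than in the background, and the shift of the set lay in smaller ratios. At a threshold of 0.5, 16 of the 46 were lower, against 24.5% of all genes, and 3 were higher, against 20.7%.

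In SiglecF hi neutrophils the same comparison gave the other direction. The median log2 ratio of *Cd300a-/-* to WT was 0.19, against 0.03 over all genes, and 39 of the 46 genes were higher, where 53.6% of all genes were. The ratios were small, from -0.29 to 0.65, and the counting interval lay above 0 for 34 genes, below 0 for 4 and held 0 for 8, against 32.6% of all genes above 0 and 25.7% below. No gene was past 1 or -1, where 1.40% and 1.65% of all genes were. *Slfn4*, *Oas2*, *Samd9l*, *Ifit2* and *Ifit3b* were the 5 genes past 0.5, against 7.03% of all genes, and 0 were past -0.5, against 7.93%.

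The genotype ratio in SiglecF lo minus that in SiglecF hi neutrophils had a median of -0.50 over the 46 genes and -0.04 over all genes. For 36 of the 46 it was below 0, where 52.7% of all genes were. It was past -1 for 10 genes, against 11.1% of all genes, and past 1 for 0, against 7.80%. By direction, 26 genes were lower in *Cd300a-/-* SiglecF lo and higher in *Cd300a-/-* SiglecF hi neutrophils, and for 22 of these both intervals lay apart from 0, where the shares of all genes were 24.2% and 9.51%. Another 13 were higher in *Cd300a-/-* in both subsets, against 29.1% of all genes, 4 were lower in both, against 26.9%, and 3, *Eif2ak2*, *Mx1* and *Phf11d*, were higher in *Cd300a-/-* SiglecF lo and lower in *Cd300a-/-* SiglecF hi neutrophils, against 18.9%. Whether the subsets differed in their response to the genotype was not tested, because each group has 1 library.

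**Figure D1:**
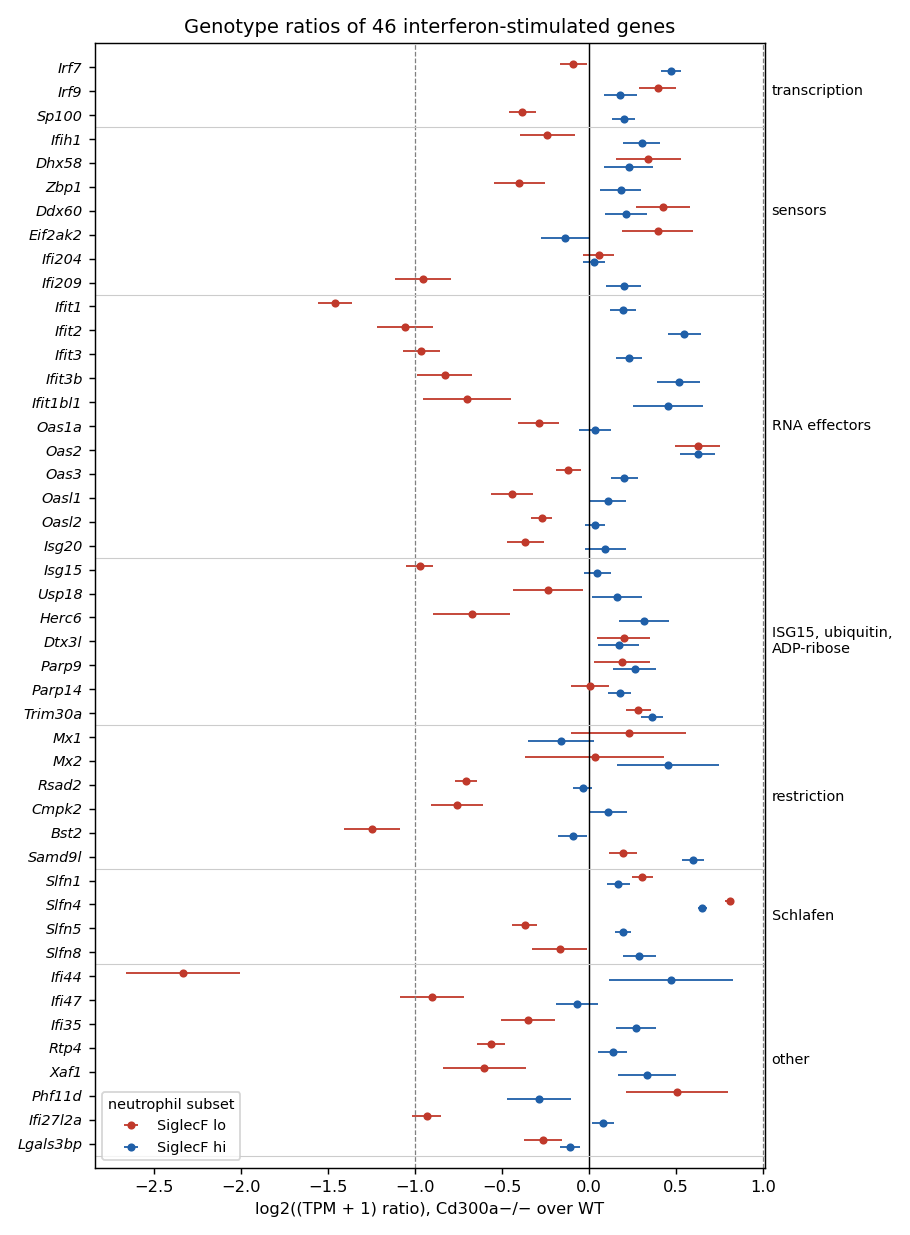
Log2((TPM + 1) ratio) of *Cd300a-/-* to WT for each of the 46 interferon-stimulated genes in the SiglecF lo and the SiglecF hi subset, ordered by role, with bars for the 95% counting interval (1 library per group). Most points of SiglecF lo neutrophils lie below 0 and most of SiglecF hi neutrophils slightly above it, with *Slfn4* and *Oas2* above 0.5 in both.

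Seen by library, 19 of the 46 genes had their highest TPM in *Cd300a-/-* SiglecF hi neutrophils, 16 in WT SiglecF lo cells, 6 in WT SiglecF hi cells and 5 in *Cd300a-/-* SiglecF lo cells. Among all genes the shares were 40.3%, 11.3%, 36.1% and 12.4%. The lowest TPM was in *Cd300a-/-* SiglecF lo neutrophils for 24 genes, in WT SiglecF lo cells for 11, in WT SiglecF hi cells for 11 and in *Cd300a-/-* SiglecF hi cells for 0, where the shares of all genes were 45.1%, 40.6%, 8.32% and 5.93%. The commonest orders were highest in *Cd300a-/-* SiglecF hi and lowest in *Cd300a-/-* SiglecF lo, with 11 genes, and highest in WT SiglecF lo and lowest in *Cd300a-/-* SiglecF lo, with 10 genes. The latter held 4 of the 5 *Ifit* genes with *Zbp1*, *Oas1a*, *Oasl1*, *Rsad2*, *Ifi44* and *Ifi27l2a*. The shares of all genes with these orders were not counted, so the orders are not shown to be particular to the set.

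Genes for the interferons themselves were hardly detected. Of 15 listed, 11 had 0 counts in all 4 libraries and 0 had a mean TPM over 1. *Ifnb1*, for interferon-β, had 4 counts, in *Cd300a-/-* SiglecF lo neutrophils, and 0 in the other libraries. *Ifng*, for interferon-γ, had 18 counts (1.90 TPM), in *Cd300a-/-* SiglecF hi neutrophils, *Ifna1* had 6 counts, in WT SiglecF hi, and *Ifnab* had 4 counts in each SiglecF hi library. All 6 receptor genes were expressed, and 0 of 6 was past 0.5 or -0.5 between genotypes, where 20.7% and 24.5% of all genes were in SiglecF lo and 7.03% and 7.93% in SiglecF hi neutrophils. *Ifnar1*, a chain of the type I receptor, was at 65.5, 81.5, 89.9 and 92.1 TPM, and *Ifngr1*, of the interferon-γ receptor, at 254, 297, 260.1 and 292 TPM. Both were present in all 4 libraries and lowest in WT SiglecF lo neutrophils.

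Of 10 genes below the receptors, 5 were higher and 5 lower in *Cd300a-/-* SiglecF lo neutrophils, with a median of -0.05. There 1 was past 0.5 and 2 past -0.5, where 20.7% and 24.5% of all genes were. In SiglecF hi neutrophils 7 were higher and 3 lower, with 0 past 0.5 or -0.5. *Stat2* and *Jak2* had the lowest and the highest ratio of the 10 in SiglecF lo neutrophils. *Stat2* had 25.1, 16.4, 24.1 and 30.5 TPM, with a genotype ratio of -0.58 in the SiglecF lo subset and 0.33 in the SiglecF hi subset. It is interferon-stimulated as well, and it was lowest in *Cd300a-/-* SiglecF lo and highest in *Cd300a-/-* SiglecF hi neutrophils. The kinase gene *Jak2* was higher in *Cd300a-/-* in both subsets, at 58.5, 96.1, 102 and 136 TPM. Among 8 genes listed as brakes of the pathway, 2 were past -0.5 in SiglecF lo neutrophils, about the share among all genes (24.5%). The list includes *Isg15* and *Usp18*, which belong to the 46 genes, and whether *Isg15* damps the pathway in the mouse was not tested. Those past -0.5 were *Isg15* and *Socs1*, an inhibitor of JAK kinases with 14.1, 6.61, 8.82 and 9.72 TPM and a ratio of -0.99. For the SiglecF hi subset 0 of the 8 was past 0.5 or -0.5, where 7.03% and 7.93% of all genes were.

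Of the listed genes upstream of interferon, for innate sensors, their adaptors and kinases, and enzymes that act on nucleic acids, 17 were found. In SiglecF lo neutrophils 13 were higher and 4 lower in *Cd300a-/-*, with a median of 0.20, and 4 were past 0.5 and 1 past -0.5, where 20.7% and 24.5% of all genes were. In SiglecF hi neutrophils 11 were higher and 6 lower, with a median of 0.13, and 1 was past 0.5 and 0 past -0.5, where 7.03% and 7.93% of all genes were. *Cgas*, the sensor of cytosolic DNA, had 9.53, 3.63, 14.7 and 12.4 TPM and a ratio of -1.18 in SiglecF lo neutrophils. *Tlr8*, an endosomal receptor of RNA, had 16.0, 34.7, 39.3 and 35.7 TPM and a ratio of 1.07. They were the lowest and the highest ratio of the 17 in SiglecF lo neutrophils, *Cgas* lowest in *Cd300a-/-* SiglecF lo and *Tlr8* lowest in WT SiglecF lo neutrophils. The gene past 0.5 in SiglecF hi neutrophils was *Ikbke*, a kinase that activates IRFs, at 10.1, 13.4, 29.6 and 47.1 TPM.

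Among the transcription factors of the set, *Irf7*, which amplifies the transcription of interferon genes, was at 201, 189, 212 and 295 TPM. It was close to even in 3 libraries and highest in *Cd300a-/-* SiglecF hi neutrophils, with a genotype ratio of -0.09 (-0.17 to -0.01) in the SiglecF lo subset and 0.47 (0.42 to 0.53) in the SiglecF hi subset. *Irf9*, for the DNA-binding partner of STAT2, differed from *Stat2*, at 68.9, 90.9, 60.9 and 69.1 TPM. Its ratio was 0.39 (0.29 to 0.50) in the SiglecF lo subset and 0.18 (0.09 to 0.27) in the SiglecF hi subset, so *Irf9* and *Stat2* did not share a direction in SiglecF lo neutrophils. *Sp100*, a component of nuclear bodies, was highest in WT SiglecF lo neutrophils, at 83.1, 63.5, 58.9 and 67.8 TPM.

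The 7 sensors were divided in SiglecF lo neutrophils, 4 higher and 3 lower in *Cd300a-/-*, with a median of 0.05. *Ifih1*, which encodes the RNA sensor MDA5, had 21.7, 18.2, 25.9 and 32.2 TPM, a ratio of -0.24 in the SiglecF lo subset and 0.30 in the SiglecF hi subset. *Dhx58*, for the related LGP2, was higher in *Cd300a-/-* in both subsets, at 29.9, 38.2, 35.0 and 41.1 TPM. So was the helicase gene *Ddx60*, at 14.4, 19.7, 16.2 and 19.0 TPM. *Zbp1*, a sensor of Z-form nucleic acid, had 71.5, 54.0, 58.5 and 66.5 TPM and was highest in WT SiglecF lo neutrophils. *Eif2ak2*, which encodes the kinase PKR that stops translation on double-stranded RNA, had 12.7, 17.1, 22.5 and 20.4 TPM. It was the 1 sensor lower in *Cd300a-/-* SiglecF hi neutrophils, where its ratio was -0.14 (-0.28 to -0.00), against 0.40 (0.19 to 0.60) in SiglecF lo neutrophils. The p200 family members *Ifi209* and *Ifi204* lie within 136 kb on chromosome 1 and differed. *Ifi209* had 44.8, 22.7, 46.9 and 54.0 TPM and a ratio of -0.95 (-1.11 to -0.79) in SiglecF lo neutrophils, whereas *Ifi204* had 161, 167, 206 and 210.5 TPM and a ratio of 0.05.

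The 11 RNA effectors went almost all the same way within a subset. In SiglecF lo neutrophils 10 of 11 were lower in *Cd300a-/-*, with a median of -0.44, and in SiglecF hi neutrophils 11 of 11 were higher, with a median of 0.20. The 5 *Ifit* genes, whose proteins bind viral RNA and hinder its translation, were 5 of 5 lower in *Cd300a-/-* SiglecF lo and 5 of 5 higher in *Cd300a-/-* SiglecF hi neutrophils. Together they were at 589, 272, 422 and 522 TPM, so that *Cd300a-/-* SiglecF lo was the low library and WT SiglecF lo the high one. *Ifit1* (ENSMUSG00000034459) had 221, 79.8, 124 and 143 TPM, a genotype ratio of -1.46 (-1.55 to -1.36) in the SiglecF lo subset and 0.19 (0.12 to 0.27) in the SiglecF hi subset. *Ifit3* was at 222, 114, 184 and 215 TPM, with ratios of -0.96 (-1.07 to -0.86) and 0.23 (0.15 to 0.30). For both, *Cd300a-/-* SiglecF lo neutrophils had the lowest level of the 4 libraries. *Ifit2* (ENSMUSG00000045932) had 41.3, 19.4, 45.2 and 66.5 TPM, with ratios of -1.06 (-1.22 to -0.89) and 0.55 (0.45 to 0.64). *Ifit3b* had 80.1, 44.6, 52.6 and 75.6 TPM, with ratios of -0.83 and 0.51. *Ifit1bl1* was at 24.2, 14.5, 16.1 and 22.4 TPM, with ratios of -0.70 and 0.45. Within the 5 genes, *Ifit2* was highest in *Cd300a-/-* SiglecF hi neutrophils and the other 4 in WT SiglecF lo neutrophils.

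**Figure D2:**
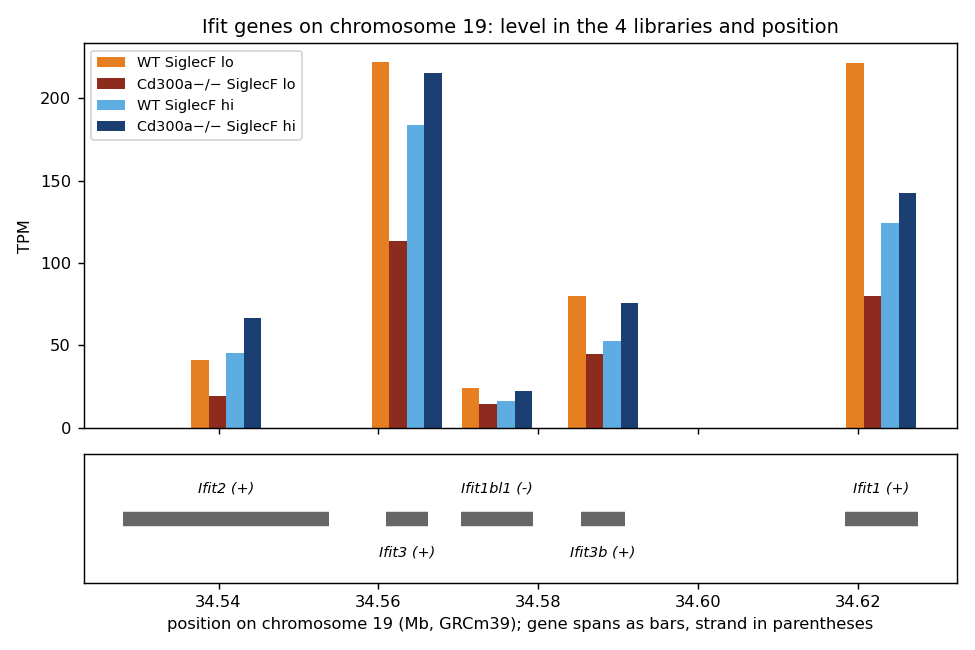
TPM of the *Ifit* genes in the 4 libraries (bars, 1 library per group) above a map of their spans on chromosome 19 in Mb, with positions as the files give them. In each of the 5 genes the *Cd300a-/-* SiglecF lo library is the lowest of the 4.

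*Oas* genes encode enzymes that answer double-stranded RNA with oligoadenylates, which activate RNase L. In SiglecF lo neutrophils 4 of the 5 *Oas* and *Oasl* genes were lower in *Cd300a-/-*, with ratios from -0.44 to -0.12, and *Oas2* was higher. *Oas2* had 33.5, 52.2, 37.5 and 58.3 TPM and a ratio of 0.62 in both subsets, with intervals of 0.49 to 0.75 and 0.53 to 0.72. It was high in both *Cd300a-/-* libraries and low in both WT libraries. *Oas1a*, *Oas3*, *Oasl1* and *Oasl2* were highest in WT SiglecF lo neutrophils, and the most abundant of them, *Oasl2*, had 274, 227, 168 and 172 TPM. *Oas3* was at 115, 106, 58.0 and 66.8 TPM. *Isg20*, an exonuclease, was at 184, 143, 86.4 and 92.3 TPM, high in the SiglecF lo libraries and, between the SiglecF lo libraries, lower in *Cd300a-/-*.

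*Isg15* (ENSMUSG00000035692) encodes a ubiquitin-like protein that is joined to other proteins after interferon. It had 1016, 518, 466 and 482 TPM, so that WT SiglecF lo stood above 3 libraries of similar level. The ratio was -0.97 (-1.05 to -0.89) in the SiglecF lo subset and 0.05 (-0.03 to 0.12) in the SiglecF hi subset. *Usp18*, the protease that removes ISG15 and damps the receptor, had 36.1, 30.5, 40.6 and 45.5 TPM. *Herc6*, the ligase that attaches ISG15 in the mouse, had 14.2, 8.51, 15.1 and 19.0 TPM, lowest in *Cd300a-/-* SiglecF lo neutrophils. The other 4 genes of this group were even or higher in *Cd300a-/-* in both subsets. *Dtx3l* and *Parp9*, whose proteins form a ubiquitin ligase and ADP-ribosyltransferase pair, had genotype ratios of 0.20 and 0.19 in the SiglecF lo subset and 0.17 and 0.26 in the SiglecF hi subset. *Parp14* had ratios of 0.00 and 0.18, and *Trim30a*, a TRIM protein gene, had 136, 165, 116 and 149 TPM with ratios of 0.28 and 0.36.

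Of 6 restriction factors, 3 were lower and 3 higher in *Cd300a-/-* SiglecF lo neutrophils. *Bst2* (ENSMUSG00000046718) encodes tetherin, which holds budding virus at the cell surface and marks plasmacytoid dendritic cells. It had 233, 97.6, 355 and 333 TPM, a ratio of -1.25 (-1.41 to -1.09) in the SiglecF lo subset and -0.09 (-0.18 to -0.01) in the SiglecF hi subset. Its level was lowest in *Cd300a-/-* SiglecF lo neutrophils and high in both SiglecF hi libraries. *Rsad2*, for viperin, and its neighbour *Cmpk2*, a nucleotide kinase of mitochondria, were both lower in *Cd300a-/-* SiglecF lo neutrophils. *Rsad2* had 218, 133, 151 and 148 TPM with a ratio of -0.71, and *Cmpk2* had 53.1, 31.0, 49.2 and 53.1 TPM with a ratio of -0.76. *Samd9l*, which restricts translation, was at 73.8, 84.7, 66.7 and 101 TPM, with a ratio of 0.20 in the SiglecF lo subset and 0.60 (0.53 to 0.66) in the SiglecF hi subset. The dynamin-like GTPase genes were low. *Mx1* had 5.46, 6.56, 14.8 and 13.2 TPM and *Mx2* had 3.70, 3.81, 4.07 and 5.94 TPM, and the interval of both genes held 0 in SiglecF lo neutrophils.

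The Schlafen genes, a family that in the mouse is known for roles in the growth of immune cells, were split by gene. *Slfn4* (ENSMUSG00000000204) had 822, 1440.3, 592 and 930.0 TPM. It was higher in *Cd300a-/-* in both subsets and highest in *Cd300a-/-* SiglecF lo neutrophils, with ratios of 0.81 (0.78 to 0.84) and 0.65 (0.63 to 0.68), the highest of the 46 genes in either comparison. *Slfn1* was at 377, 467, 224 and 251 TPM, also higher in *Cd300a-/-* in both subsets, with ratios of 0.31 and 0.17. *Slfn5* and *Slfn8* were lower in *Cd300a-/-* SiglecF lo and higher in *Cd300a-/-* SiglecF hi neutrophils, with ratios of -0.37 and 0.19 for *Slfn5* and -0.17 and 0.29 for *Slfn8*. The 4 genes summed to 1334, 2015, 989 and 1384 TPM, the 1 role group whose sum was highest in *Cd300a-/-* SiglecF lo neutrophils.

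Of 8 other members, 7 were lower in *Cd300a-/-* SiglecF lo neutrophils, with a median of -0.58. *Ifi27l2a* (ENSMUSG00000079017), of the family of small hydrophobic IFI27 proteins, had 1320.3, 692, 975 and 1029.7 TPM and ratios of -0.93 (-1.01 to -0.85) and 0.08 (0.01 to 0.14). *Ifi44* had 65, 1, 59 and 82 counts, or 4.35, 0.0606, 2.31 and 3.59 TPM. It was almost absent from *Cd300a-/-* SiglecF lo neutrophils, and its log2 ratio there was -2.33. As a plain TPM ratio, WT was 71.7 times *Cd300a-/-* in SiglecF lo neutrophils, with a counting interval of 12.4 to 2875, which is wide because of the single count. *Rtp4*, a chaperone of receptors, was at 262, 177, 126 and 138 TPM, highest in WT SiglecF lo neutrophils. *Ifi47*, a GTPase gene, *Ifi35* and *Xaf1*, known from apoptosis, had genotype ratios in SiglecF lo neutrophils of -0.90, -0.35 and -0.60. *Phf11d*, a zinc finger gene, went against the group, at 8.51, 12.5, 19.9 and 16.2 TPM, with a ratio of 0.51 (0.21 to 0.80) in the SiglecF lo subset and -0.29 (-0.47 to -0.10) in the SiglecF hi subset. *Lgals3bp*, a secreted protein that binds galectin, was at 100.4, 83.3, 219 and 203 TPM, high in both SiglecF hi libraries.

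**Figure D3:**
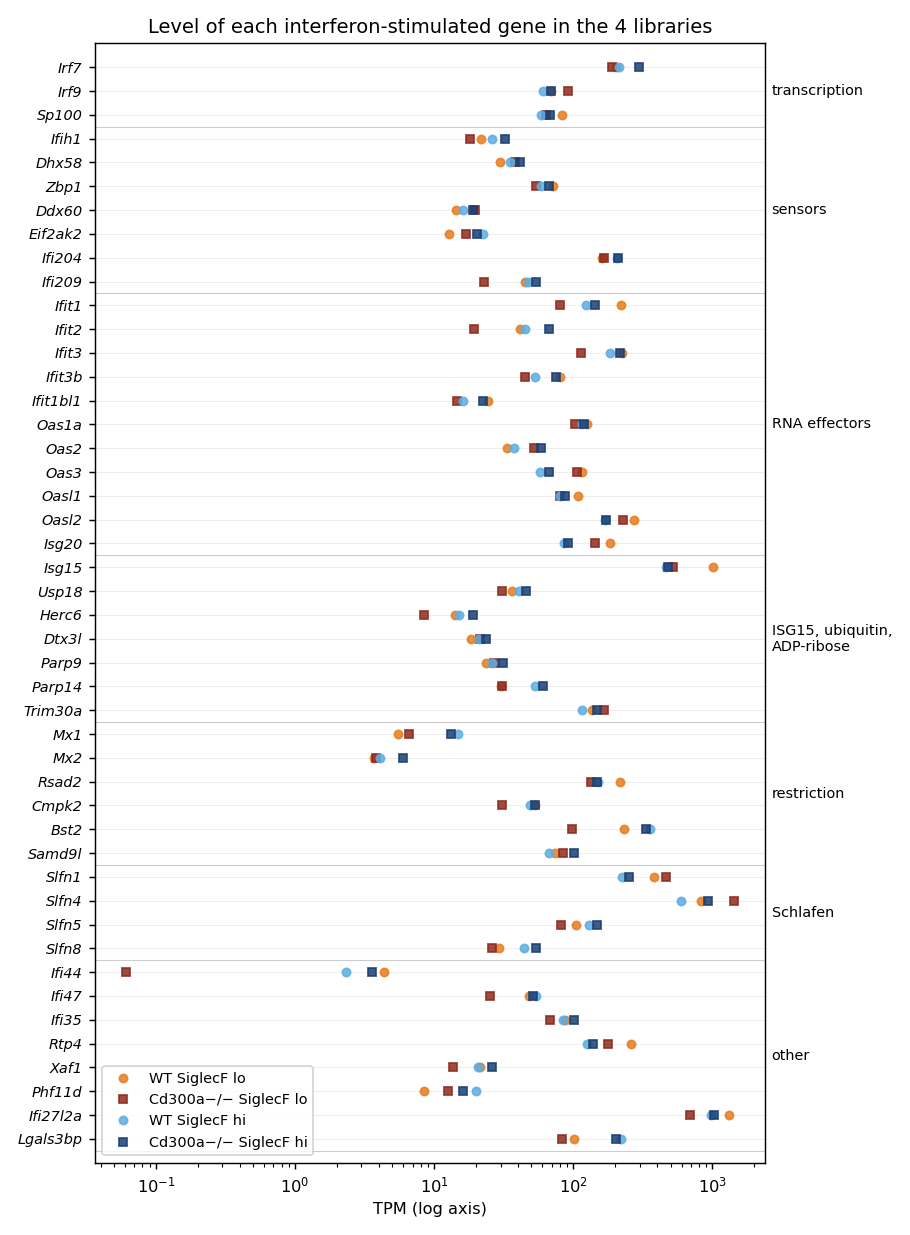
TPM of the interferon-stimulated genes in the 4 libraries on a log scale, 1 point per library and gene (1 library per group). *Ifi27l2a*, *Slfn4* and *Isg15* are the most abundant, and *Ifi44* in *Cd300a-/-* SiglecF lo neutrophils, with 1 count, is the lowest point.

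Comparing the subsets shows where the genes were expressed in each genotype. These comparisons use the same 4 libraries as the genotype ratios, and the values stand side by side. Over all genes, the SiglecF hi to SiglecF lo ratio itself had a median of 0.57 for WT and of 0.64 for *Cd300a-/-* cells, and the members are also given relative to that shift. In WT the interferon-stimulated genes had a median of -0.06, or -0.63 relative to all genes, and 22 of 46 were higher in SiglecF hi neutrophils, where 78.7% of all genes were. Relative to the median of all genes 6 of 46 were higher, and the direction turned for 16 of the 46. Past 1 were 3 genes, against 26.2% of all genes, and past -1 were 3, against 4.29%. Those past 1 were *Mx1* (1.29), *Phf11d* (1.14) and *Lgals3bp* (1.12), and those past -1 were *Isg15* (-1.12), *Isg20* (-1.09) and *Rtp4* (-1.05). Relative to the median of all genes, 15 were past -1 and 0 past 1, where 10.6% and 8.17% of all genes were.

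In *Cd300a-/-* the median was 0.44, or -0.20 relative to all genes, and 36 of 46 were higher in SiglecF hi neutrophils, against 80.5% of all genes. Relative to the median of all genes 17 were higher, and the direction turned for 19 of the 46. Past 1 were 8 genes, against 30.2% of all genes, and past -1 were 0, against 3.91%. *Ifi44* (2.11), *Bst2* (1.76), *Ifit2* (1.73), *Lgals3bp* (1.28) and *Ifi209* (1.22) had the highest ratios, and relative to the median of all genes *Ifi44*, *Bst2* and *Ifit2* stayed past 1 and 6 genes were past -1, where 9.18% and 10.7% of all genes were. The lowest were *Slfn1* (-0.89), *Oas3* (-0.66), *Slfn4* (-0.63), *Isg20* (-0.63) and *Oasl2* (-0.40), and these 5 were higher in SiglecF lo neutrophils in both genotypes. *Ifit1* was at -0.83 in WT and 0.83 in *Cd300a-/-*, and *Isg15* at -1.12 in WT and -0.10 in *Cd300a-/-*. Relative to the median of all genes, *Ifit1* was at -1.40 in WT and 0.19 in *Cd300a-/-*, and *Isg15* at -1.70 and -0.74. *Eif2ak2* and *Parp14* were among the 5 highest ratios in WT, at 0.78 and 0.79. *Parp14* was at 30.5, 30.6, 53.5 and 60.6 TPM, high in both SiglecF hi libraries, whereas *Ifit1* and *Isg15* were highest in WT SiglecF lo neutrophils.

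Other interferon-stimulated genes, outside the 46, were listed for comparison, and 36 of 38 were in the files. In SiglecF lo neutrophils their median genotype ratio was -0.18, with 21 lower and 15 higher, and 11 were past -0.5 and 4 past 0.5, where 24.5% and 20.7% of all genes were. In SiglecF hi neutrophils it was 0.09, with 2 past -0.5 and 0 past 0.5, against 7.93% and 7.03% of all genes. *Cxcl10*, a chemokine that draws T cells, had 158, 67.0, 220.3 and 262 TPM and ratios of -1.23 and 0.25. *Psmb9*, of the immunoproteasome, had 98.6, 34.8, 67.7 and 55.9 TPM and a ratio of -1.48 in SiglecF lo neutrophils, where *Ms4a4c* had -1.24. These 3 genes of the 36 were past -1, where 10.4% of all genes were, and each was lowest in *Cd300a-/-* SiglecF lo neutrophils. *Ifitm1*, a membrane protein that blocks virus entry, had 2021, 3477, 764 and 804 TPM and a ratio of 0.78, and *Helz2* had one of 0.95. Of 10 genes that respond mainly to interferon-γ, 8 were lower in *Cd300a-/-* SiglecF lo neutrophils, 5 of them past -0.5 (24.5% of all genes were), with a median of -0.49, and the median in SiglecF hi neutrophils was 0.08. *Gbp2*, a guanylate-binding protein, was at 131, 85.8, 89.7 and 94.6 TPM, and *Igtp* at 56.2, 33.8, 53.0 and 63.5 TPM.

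Markers of other cells moved with the genotype in the same libraries. Of 5 endothelial genes, 5 were lower in *Cd300a-/-* SiglecF lo, with a median ratio of -1.26, and 5 higher in *Cd300a-/-* SiglecF hi neutrophils, with a median of 0.38. Their sum was 123, 44.8, 68.6 and 91.3 TPM, led by *Pecam1* with 57.5, 15.6, 23.2 and 30.4 TPM. Of 5 cardiomyocyte genes, 5 were lower in *Cd300a-/-* SiglecF lo and 5 higher in *Cd300a-/-* SiglecF hi neutrophils, with medians of -0.73 and 0.71 and sums of 41.0, 25.0, 41.5 and 62.6 TPM, and *Myl2* or *Tnnt2* was the most abundant. These sums had the same order of high and low library as the *Ifit* genes within each subset. Of all genes, 24.2% were lower in *Cd300a-/-* SiglecF lo and higher in *Cd300a-/-* SiglecF hi neutrophils. Of 12 monocyte and macrophage genes, 9 were lower in *Cd300a-/-* SiglecF lo neutrophils, with a median of -0.18, and *Fcgr1*, an interferon-γ-responsive Fc receptor, had -1.22. Their median in SiglecF hi neutrophils was -0.27. The 5 fibroblast genes, led by *Dcn*, summed to 829, 769, 1765 and 1211 TPM. In SiglecF lo neutrophils 2 were higher and 3 lower in *Cd300a-/-*, with a median of -0.04. In SiglecF hi neutrophils 5 of 5 were lower, with a median of -0.64, unlike the endothelial and cardiomyocyte genes.

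Plasmacytoid dendritic cells, the main makers of type I interferon, were sparse by their markers. Of 6 genes 3 had a mean TPM over 1, their sum was 24.7, 5.38, 10.9 and 12.6 TPM, with *Klk1* or *Cox6a2* the most abundant, and the defining marker *Siglech* was at 0.748, 0.834, 1.18 and 0.0753 TPM. Eosinophils also carry SiglecF. Of their 6 genes *Epx* had 0 counts in every library and *Prg2* had 2 counts, all in the WT SiglecF hi library, and the sum of 173, 87.9, 116 and 119 TPM was almost wholly *Ear2*. The chemokine receptor gene *Ccr3* was low, at 1.49, 1.78, 4.91 and 5.49 TPM. It was higher in SiglecF hi than in SiglecF lo cells in both genotypes, with ratios of 1.25 in WT and 1.22 in *Cd300a-/-*, whereas *Ear2* had -0.63 and 0.39. Relative to the median of all genes, these ratios were 0.68 and 0.58 for *Ccr3* and -1.20 and -0.25 for *Ear2*, so *Ear2* turned in *Cd300a-/-*. Lymphocyte genes had few counts. *Trac* had 0 counts in every library, and the T cell gene *Cd3d*, with 14, 40, 19 and 55 counts, and the B cell gene *Cd79a*, with 0, 17, 20 and 67 counts, were higher in *Cd300a-/-* in both subsets. *Klrb1c*, of NK cells, was lower in both, with 16, 0, 17 and 1 counts. Like it, *Cd3e* (7, 0, 0 and 0 counts), *Ms4a1* (0, 0, 23 and 15) and *Ncr1* (9, 0, 0 and 6) had a mean TPM under 1. The sort, per the sample records, was for CD45.2, CD11b and Ly6G, a gate meant to leave out other cells, and its purity is not known from these files. The part of any of these cells in the levels of the interferon-stimulated genes was not tested.

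The genes share positions. On 14 chromosomes, 23 of the 46 lie within 500 kb of another member, in 8 clusters. Positions are as the files give them, and the submitters' processing notes name the build GRCm39. The *Ifit* cluster, on chromosome 19 from 34528094 to 34627409, holds 5 members in 99.3 kb, with genotype ratios from -1.46 to -0.70 in the SiglecF lo subset and from 0.19 to 0.55 in the SiglecF hi subset. The Schlafen cluster, on chromosome 11 from 82842175 to 83081042, holds 4 members with ratios in SiglecF lo neutrophils from -0.37 to 0.81. Neighbours there went both ways, as they did on chromosome 5 from 120868398 to 121045584, where *Oas2* (0.62) lies beside *Oas3* (-0.12) and *Oas1a* (-0.29). *Rsad2* and *Cmpk2*, on chromosome 12 from 26492745 to 26529836, were alike in SiglecF lo neutrophils.

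Some members are near copies of other genes, and their counts are uncertain where reads could be split between copies. In transcripts of GENCODE, 11 members shared over 10% of their 36-base words with another gene. *Oas1a* shared 65.7%, all of it with *Oas1g*, *Ifit3* shared 58.5% with *Ifit3b*, and *Ifit3b* shared 52.1%. *Ifi209* shared 42.7%, most of it with *Ifi214*, and *Slfn4* 17.4%. At most 1% was shared for 18 members, among them *Ifit2*, *Bst2*, *Oas2* and *Irf7*. Members that overlap another gene number 8. *Dtx3l* and *Parp9* overlap by 682 bases on opposite strands and *Ifi47* overlaps *Olfr56* by 20388 bases on the same strand. The sources used here do not say whether counting used the strand.

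Promoters were read from RefSeq on GRCm38.p6, as windows of 250 bases before to 50 bases after the start, and 35 of the 46 members had one. The ISRE core was searched as GAAANNGAAA and the GAS core as TTCNNNGAA, on both strands. The ISRE core was in 15 of 35 members (42.9%) and in 3.99% of 27025 genes of the table, and the GAS core was in 6 of 35 (17.1%) and in 9.55%. The ISRE core was thus more frequent in the members than in the table, and genotype ratios of members with and without it were close. The median ratio in SiglecF lo neutrophils was -0.37 for the 15 members with the core, 12 of them lower in *Cd300a-/-*, and -0.36 for the 20 without it, 14 of them lower. In SiglecF hi neutrophils the medians were 0.20 and 0.19. A match is a run of letters and not a measured binding site.

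Shown here are the 250 bases before the start of 5 members with an ISRE core and a low ratio in *Cd300a-/-* SiglecF lo neutrophils, and of *Ddx60*, which has the core and a higher level in *Cd300a-/-* SiglecF lo neutrophils. They were chosen after their values were seen. Capitals mark the ISRE core on either strand, and where cores overlap they run together. *Isg15* has 3 overlapping cores, at positions -78, -72 and -66 from the start, and the others have 2 each.
*Isg15*, chr4:156200819-156201068, minus strand: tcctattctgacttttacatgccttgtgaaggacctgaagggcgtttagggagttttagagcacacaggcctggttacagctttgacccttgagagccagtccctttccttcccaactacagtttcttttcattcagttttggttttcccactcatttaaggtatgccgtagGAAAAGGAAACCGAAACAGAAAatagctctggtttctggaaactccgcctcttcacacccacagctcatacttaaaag
*Ifit1*, chr19:34640639-34640888, plus strand: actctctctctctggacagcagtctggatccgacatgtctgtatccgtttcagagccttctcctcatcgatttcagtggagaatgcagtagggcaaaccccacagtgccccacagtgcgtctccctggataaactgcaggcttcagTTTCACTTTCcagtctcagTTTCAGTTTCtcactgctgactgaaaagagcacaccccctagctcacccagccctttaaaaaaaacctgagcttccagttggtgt
*Ifit3*, chr19:34583279-34583528, plus strand: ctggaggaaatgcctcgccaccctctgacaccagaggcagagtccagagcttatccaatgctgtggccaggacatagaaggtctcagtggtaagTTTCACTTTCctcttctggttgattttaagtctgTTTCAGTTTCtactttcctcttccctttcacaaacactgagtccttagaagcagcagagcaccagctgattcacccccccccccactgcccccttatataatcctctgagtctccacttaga
*Ifit3b*, chr19:34607707-34607956, plus strand: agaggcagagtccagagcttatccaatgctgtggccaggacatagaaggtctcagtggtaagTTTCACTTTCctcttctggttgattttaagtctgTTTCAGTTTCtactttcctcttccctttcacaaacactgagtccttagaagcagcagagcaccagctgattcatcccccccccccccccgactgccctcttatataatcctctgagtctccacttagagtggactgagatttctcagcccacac
*Bst2*, chr8:71537473-71537722, minus strand: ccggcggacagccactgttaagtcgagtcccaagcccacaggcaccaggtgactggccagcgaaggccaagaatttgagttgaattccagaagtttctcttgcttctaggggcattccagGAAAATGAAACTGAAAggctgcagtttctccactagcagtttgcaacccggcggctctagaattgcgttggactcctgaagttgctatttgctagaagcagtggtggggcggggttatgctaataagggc
*Ddx60*, chr8:61927837-61928086, plus strand: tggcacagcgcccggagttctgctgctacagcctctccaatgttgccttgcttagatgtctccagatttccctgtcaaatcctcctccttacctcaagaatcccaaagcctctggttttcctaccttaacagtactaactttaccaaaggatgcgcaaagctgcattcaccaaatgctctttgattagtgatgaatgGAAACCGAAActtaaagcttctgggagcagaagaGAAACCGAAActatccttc
*Ifit3* and *Ifit3b* share an identical run of 169 bases that holds both cores, and *Ifit1*, *Ifit3* and *Ifit3b* each have the letters TTTCACTTTC and TTTCAGTTTC. *Ddx60* has GAAACCGAAA at both of its sites, and *Isg15* has the same letters at its middle core.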

How the data were processed

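RNA was sequenced from 4 pools of sorted cardiac neutrophils, with poly(A) selection and CLC Genomics Workbench, per the methods. The authors deposited a count per gene, which is not normalized, and RPKM and TPM, normalized for length and depth. The deposited signal named CPM equals the counts scaled to library size times the inverse TMM factor of the library (1.10, 1.15, 0.884 and 0.893). Counting strand and annotation release are not given in the sources used here. Log2((TPM + 1) ratio) was computed with Python 3.11.15, numpy 2.4.6, pandas 2.3.3 and scipy 1.17.1, for genes with a mean TPM over 1, and intervals come from Poisson error of the counts. The calculation was tested on simulated data. Genes named are the 6 of highest mean TPM, the 5 highest and 5 lowest in each comparison, examples of each role group, and members against their group. The 46 members and all lists were chosen with earlier results of these data known. Alternatives were a pseudocount of 0.1, no filter, a mean TPM over 10, TMM scaling (edgeR 4.0.16 in R 4.3.3), centring on the median of all genes, a threshold of 0.5 and an ISRE core with 1 mismatch.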

Additional observations from a re-analysis of the deposited data

Results flagged for a closer look

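*Ifit2* and *Ifit3b* stood out because their genotype ratios had opposite signs in the subsets, past 0.5 in each and with both counting intervals apart from 0. For *Ifit2* the log2 ratio between genotypes was -1.06 in the SiglecF lo subset and 0.55 in the SiglecF hi subset, a difference of -1.60. *Ifit3b* had -0.83 in the SiglecF lo subset and 0.51 in the SiglecF hi subset, a difference of -1.34. The share of all genes that met the same rule was not counted. Without the threshold of 0.5, 22 of the 46 genes were lower in *Cd300a-/-* SiglecF lo and higher in *Cd300a-/-* SiglecF hi neutrophils with both intervals apart from 0. Of all genes, 9.51% were. With 1 library per group the difference was not tested.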

How the results depend on the processing

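Between genotypes, 0 of 46 genes changed sign with a pseudocount of 0.1, TMM scaling or centring, in either subset, and the medians kept their sign and the counts past 1 stayed within 1.5 times. At a threshold of 0.5, 3 genes were counted higher and 16 lower for the SiglecF lo subset, and 5 higher for the SiglecF hi subset, by construction of a lower threshold. Between subsets, medians and counts moved with scaling, and the cause was not tested. In WT the median was -0.58 with TMM scaling, with 0 genes past 1 and 13 past -1, and -0.63 with centring, with 0 and 15. In *Cd300a-/-* it was -0.11 with TMM scaling, with 3 past 1 and 4 past -1, and -0.20 with centring, with 3 and 6. At a threshold of 0.5 the counts were 7 and 11 in WT and 23 and 4 in *Cd300a-/-*. Of all 11472 genes, 6241 and 1076 were past 0.5 and -0.5 in WT, and 6646 and 973 in *Cd300a-/-*. With TMM scaling, 1476 and 1081 of all 11472 genes were past 1 and -1 in WT, and 1600 and 1035 in *Cd300a-/-*. With 1 mismatch allowed, the ISRE core was in 33 of 35 members (94.3%), against 38.9% of the 27025 genes of the promoter table. No gene past 1 or -1 changed sign under an alternative, but the median between subsets in *Cd300a-/-* did, from 0.44 as deposited to the values below 0 given here. The mean TPM filter of 10 keeps 43 of the 46 genes. No paired analysis was possible because each group has 1 library, and for the same reason no library could be left out. Depth limits the values of low genes such as *Ifi44*, *Mx1* and *Mx2*. Sorting purity, cell numbers and protein levels were not measured in these files.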

Other observations

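Granule genes of immature neutrophils differed between genotypes in both subsets. Of 9 such genes 7 had a mean TPM over 1, and their median log2 ratio of *Cd300a-/-* to WT was 1.36 in the SiglecF lo subset and 1.23 in the SiglecF hi subset, with 5 genes past 1 in each, where 6.88% and 1.40% of all genes were. The sum was 5387, 12422, 950.1 and 1733 TPM, highest in *Cd300a-/-* SiglecF lo neutrophils, and *Lcn2*, which encodes the iron-binding protein lipocalin 2, was at 2385, 6124, 242 and 568 TPM. *Retnlg*, a gene of mature neutrophils, was at 12110.1, 24002, 590.1 and 1360.5 TPM. Of the 46 interferon-stimulated genes, 13 had the same order of libraries within each subset, higher in *Cd300a-/-*, and *Slfn4* was one of them. This was about the share among all genes (29.1%). *Isg15* and *Ifit1* were lower in *Cd300a-/-* SiglecF lo neutrophils, and their genotype ratios in the SiglecF hi subset were 0.05 and 0.19. These values come from the same 4 libraries, and no relation between them was tested.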
